A study of Homo sapiens with 14 samples.

Results

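The 8 genes described here encode the cyclins and kinases that move a cell from G1 into S phase: the D-type cyclins CCND1, CCND2 and CCND3, the E-type cyclins CCNE1 and CCNE2, and the kinases CDK2, CDK4 and CDK6. They were chosen by name, by a rule that uses no measured value, although earlier results of these data were known when the set was drawn up. All 8 were among the 24638 genes listed in all 3 kinds of table. All 8 also passed the filter on low counts in both tests, among 15338 genes tested for the knockdown and 15116 for passage.

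Poly(A)+ RNA was sequenced from IMR90 cells, a line of human fetal lung fibroblasts that is widely used to study senescence. Of its isolates, I79 and I10 were used, and each was taken at low passage (young, proliferating) and at high passage (old, replicatively senescent). I79 was also taken at low passage after treatment with inflachromene (ICM), a compound that binds HMGB1 and HMGB2, chromatin proteins of the HMG-box family. The study describes a DMSO control for ICM, but the titles of the I79 young samples name no vehicle. A last pair of groups was wild-type cells (WT) and cells with an HMGB2 knockdown (HMGB2 KD), which was made with siRNA. Which isolate the knockdown pair came from, and whether the WT cells received a control siRNA, are not given in the sources used here. The WT, HMGB2 KD and ICM groups had 2 libraries each. The labels do not say that the libraries of a group came from separate cultures. Between the 2 libraries, the chi-square per degree of freedom was 18 in WT, 28 in HMGB2 KD and 1.78 in ICM. The ICM libraries, which were also shallower, thus differed by little more than counting error. The old and young groups had 1 deposited table each, treated as the authors' pooled value with no SD or n.

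In G1, mitogens raise the D-type cyclins, which bind CDK4 or CDK6 and start to phosphorylate the retinoblastoma protein and its relatives. This frees E2F factors, which switch on cyclin E and the S phase genes, and cyclin E with CDK2 completes the phosphorylation and starts DNA replication. CDK inhibitors of the INK4 and CIP/KIP families block these complexes, and cells in replicative senescence stay arrested behind that block while often holding abundant cyclin D1.

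The labels were checked before the members were read. All 8 fibroblast markers reached 1 CPM (reads scaled to the total of the genes that all tables list) in every column, and their sum ran from 12567 to 33525 CPM. The summed epithelial markers stayed at or below 0.767 CPM. Of the endothelial markers, CDH5 was at 0 throughout and TEK alone lay at 50.1 to 217 CPM. Of the blood cell markers, CD3E was at 0 and CD68 lay at 24.4 to 160 CPM. HMGB2 fell from 27.1 and 27.3 to 3.22 and 3.64 TMM-scaled CPM in HMGB2 KD (adjusted p = 8.28e-07, edgeR). CDKN1A, which encodes the CDK inhibitor p21, rose with passage by 2.48 on the log2 scale (adjusted p = 0.00417, edgeR), and LMNB1, a nuclear lamina gene lost in senescence, fell by 2.86 (adjusted p = 0.00356, edgeR). The WT libraries did not sit with the young columns in these markers: CDKN1A lay at 1262 and 1297 CPM on shared genes in WT, at 404 in I79 young and at 2385 in I79 old. Between-table values of this kind also hold the different counting of the tables. In bulk RNA, fewer cells of a kind and less RNA per cell cannot be told apart.

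CDK6 was the member called in both tested comparisons, and CDK4, its close relative, was called in neither. The sequences upstream of both genes are shown for that reason, from RefSeq (GRCh38.p14). Of the 8 members, 4 had a window in that table (CCND3, CCNE1, CDK4 and CDK6), and CCND1, CCND2, CCNE2 and CDK2 are named only. Capitals mark matches, on either strand, to CACGTG (E-box) or GGGCGG (GC-box). TATAAA and the E2F letters TTTCCCGC, TTTGGCGC, TTTCGCGC and TTTGCCGC were also searched, and no 2 matches overlapped.
CDK6, main start (chr7:92833960-92834209, minus strand): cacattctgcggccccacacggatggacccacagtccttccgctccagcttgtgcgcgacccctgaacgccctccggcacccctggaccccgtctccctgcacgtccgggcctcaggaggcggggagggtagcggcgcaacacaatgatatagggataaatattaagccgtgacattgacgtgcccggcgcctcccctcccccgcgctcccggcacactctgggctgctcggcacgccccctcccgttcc
CDK6, upstream start (chr7:92836574-92836823, minus strand): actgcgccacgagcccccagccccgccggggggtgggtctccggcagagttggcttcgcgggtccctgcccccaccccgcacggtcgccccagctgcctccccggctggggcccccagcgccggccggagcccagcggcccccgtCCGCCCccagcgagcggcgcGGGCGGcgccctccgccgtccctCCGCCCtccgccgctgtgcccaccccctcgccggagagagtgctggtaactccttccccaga
CDK4 (chr12:57752448-57752560, minus strand): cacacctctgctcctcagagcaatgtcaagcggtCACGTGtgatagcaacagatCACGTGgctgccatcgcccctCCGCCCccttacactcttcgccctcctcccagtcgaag

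The first of these windows ends just before the annotated start of ENST00000265734 and lies at 92463274 to 92463523 in GRCh37 by an exact match, within an intron of a longer CDK6 transcript. ENST00000265734 is the transcript that held between 91.3% and 94.7% of CDK6 TPM in the 4 old and young tables. It held none of the letters searched, while the other CDK6 window, at 92465888 to 92466137 in GRCh37 and within introns of CDK6-AS1 transcripts, held 3 GC-boxes. The CDK4 window of 250 bases held 3 E-boxes and 3 GC-boxes. Only its 113 bases beyond the exons of coding CDK4 transcripts are printed, with 2 of the E-boxes. The CCNE1 window held 7 GC-boxes and no E-box. Over all 35116 such windows in the table, 6.34% held an E-box, 42.6% a GC-box, 2.79% an E2F form and 10.7% TATAAA. None of the 7 windows of members held an E2F form or TATAAA, which says only that these letters are not in these windows.

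Passage into senescence changed 2 of the D-type cyclins, CCNE2 and CDK6. CCND1, CCND2 and CDK6 rose in both isolates and CCNE2 fell in both. Calls needed an adjusted p under 0.01 and a log2 change over 0.6 in edgeR's quasi-likelihood test, in which isolate was a covariate. By this rule 4 of 8 members were called, 3 higher and 1 lower, where 9.57% of all genes tested were called (5.75% higher in old and 3.82% lower). The old and young columns did not overlap in 6 of 8 members, as in 74.0% of all genes. Within a single isolate, 4 members passed 0.6 in I79 (41.2% of all genes) and 5 in I10 (37.3%), where CDK4 was the additional one. With library totals in place of TMM the median gene shifted from -0.01 to -0.22 on the log2 scale and the called genes turned from 60.1% higher to 32.6% higher, but among the members the sign turned for CCND3 alone. The summed blood cell markers, nearly all CD68, were at 24.6 and 27.0 CPM on shared genes in I79 and I10 young and at 160 and 81.6 in old, and the summed endothelial markers, nearly all TEK, at 109 and 76.3 in young and 220 and 161 in old. Their part in the members' changes was not tested. With 2 isolates as replicates, 1 residual degree of freedom was left.

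CCND1, the cyclin D1 gene on chromosome 11 (69455924 to 69469242, GRCh37, plus strand), stood at 207 TMM-scaled CPM in I79 young and 249.6 in I10 young. It stood at 1116 in I79 old and 1662 in I10 old. Both old columns lay far above both young ones. The log2 fold change was 2.58 (SE 0.16, adjusted p = 0.00356, edgeR), a 5.99-fold rise. The old to young ratio was 5.39 in I79 (95% exact counting interval 5.19 to 5.59) and 6.66 in I10 (6.46 to 6.86). Without molecular identifiers in the reads, such intervals hold counting error alone. One transcript, ENST00000227507, held 85.7% of CCND1 TPM in I79 young and between 93.8% and 95.5% in the other 3 columns.

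CCND2, the cyclin D2 gene on chromosome 12 (4378937 to 4414519, plus strand), went from a few reads to a clear signal. It had 16 estimated counts in I79 young and 26 in I10 young, against 1236 in I79 old and 784 in I10 old. These were 1.02 and 1.36 TMM-scaled CPM in the young columns and 67.1 and 43.3 in the old ones. The groups stood wide apart, and CCND2 had the largest fold change of the 8 members (log2 5.47, SE 0.27, adjusted p = 0.00324, edgeR), ranking 46 of 15116 by its rise. The ratio was 65.5 in I79 (95% exact interval 40.2 to 115) and 31.9 in I10 (21.6 to 49.2), so the low young counts left it much less precise than that of CCND1. Nearly all of it came from ENST00000261254 (97.8% or more of CCND2 TPM).

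CCND3, the cyclin D3 gene on chromosome 6 (41902672 to 42018095, minus strand), did not move with them. From young to old its TMM-scaled CPM went from 42.8 to 39.1 in I79 and from 39.7 to 53.5 in I10. The columns overlapped, and the values had opposite directions in the isolates (log2 -0.13 in I79 and 0.43 in I10). In I79 the 95% interval of the ratio, 0.821 to 1.02, included 1. Over both, the log2 change was 0.15 (SE 0.17, adjusted p = 0.514, edgeR). The share of the leading transcript ENST00000372991 was nevertheless higher in old than in young cells of both isolates, at 56.4% and 71.9% of CCND3 TPM in I79 and at 58.5% and 75.0% in I10.

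The D-type cyclins were compared with each other per transcript length. In the deposited TPM, CCND1 made up 68.6% of their sum in I79 young and 71.5% in I10 young, and 89.2% and 91.7% in I79 old and I10 old. CCND3 went the other way, from 31.3% and 28.3% of the sum in young cells to 7.50% and 6.81% in old cells. CCND2 took 0.193% and 0.240% in young cells and 3.34% and 1.54% in old cells, so even after its rise it stayed a minor D-type transcript. The summed D-type level was 137 and 149.8 TPM in the young columns and 473 and 649 TPM in the old ones.

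CCNE1 and CCNE2 encode the cyclins that activate CDK2, and both are known E2F targets. CCNE1 (chromosome 19, 30302898 to 30315219, plus strand) stood at 5.06 and 4.54 TMM-scaled CPM in I79 young and I10 young and at 3.31 and 3.37 in the old columns. Old lay below young in both isolates, on 61 to 87 counts a column, and the change did not pass the test (log2 -0.52, SE 0.25, adjusted p = 0.177, edgeR). The 95% interval of the ratio was 0.461 to 0.926 in I79, and in I10 it reached 1, at 0.527 to 1.04.

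CCNE2 (chromosome 8, 95891998 to 95908906, minus strand) had 121 and 127 counts in the young columns and 35 and 37 in the old ones. In TMM-scaled CPM that was 7.75 and 6.62 against 1.90 and 2.04, with no overlap. The log2 fold change was -1.86 (SE 0.26, adjusted p = 0.00996, edgeR), a 3.62-fold drop that sits just inside the threshold. With DESeq2 its adjusted p was 0.0106, and with counts rebuilt from TPM and mean transcript length and tested by edgeR it was 0.0145, which ends the call. CCNE2 made up 50.015% and 48.2% of summed E-type TPM in young cells and 30.7% and 28.5% in old cells. INTS8, whose exons overlap those of CCNE2 by up to 1629 bases, had a log2 change of -0.39 (adjusted p = 0.0499, edgeR). Whether reads were counted by strand is not given in the sources used here, and the part of this overlap was not tested.

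CDK6 (chromosome 7, 92234235 to 92465887, minus strand), one of the kinases of the D-type cyclins, stood at 131 and 124.6 TMM-scaled CPM in I79 young and I10 young and at 232 and 262 in I79 old and I10 old. The old columns lay above the young ones in both isolates. The log2 fold change was 0.95 (SE 0.12, adjusted p = 0.00809, edgeR). The ratio was 1.77 in I79 (95% exact interval 1.68 to 1.87) and 2.10 in I10 (2.00 to 2.21).

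CDK4 (chromosome 12, 58141510 to 58149796, minus strand), the other kinase of the D-type cyclins, had lower values in old cells. Its TMM-scaled CPM was 128 (young) and 101 (old) for I79, and 131 (young) and 72.3 (old) for I10. The groups did not overlap, but the log2 change of -0.60 (SE 0.15, adjusted p = 0.0415, edgeR) was not called. It was called with library totals in place of TMM (log2 -0.81, adjusted p = 0.00689, edgeR) and without the filter on low counts (log2 -0.62, adjusted p = 0.000157, edgeR). It was also called when the adjusted p needed only to be under 0.05. TSPAN31, which shares up to 1369 exon bases with CDK4, had values in the other direction, with a log2 change of 0.54 (adjusted p = 0.0284, edgeR), also not called. The leading CDK4 transcript ENST00000257904 held between 38.1% and 44.5% of CDK4 TPM. ENST00000553237, which is annotated to nonsense-mediated decay, held 13.8% and 16.2% in the young columns and 22.3% and 24.0% in the old ones.

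Per length, CDK6 took up more of the summed CDK4 and CDK6 TPM in old cells. Its share was 10.2% in I79 young and 9.37% in I10 young, and 20.7% and 27.8% in I79 old and I10 old. CDK4 remained the more abundant of the pair, at 8.77 and 9.67 times CDK6 per length in young cells and 3.83 and 2.603 times in old cells.

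CDK2 (chromosome 12, 56360565 to 56366573, plus strand), the partner of cyclin E, showed no common direction. From young to old its TMM-scaled CPM went from 52.7 to 56.1 in I79 and from 57.8 to 45.2 in I10. The groups overlapped, and the log2 change was -0.13 (SE 0.14, adjusted p = 0.509, edgeR). PMEL, which shares up to 565 exon bases with CDK2, stood at 24.1 CPM in I79 old and between 1.98 and 2.94 in the other 3 columns. Its part in the CDK2 values was not tested.

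**Figure D1:**
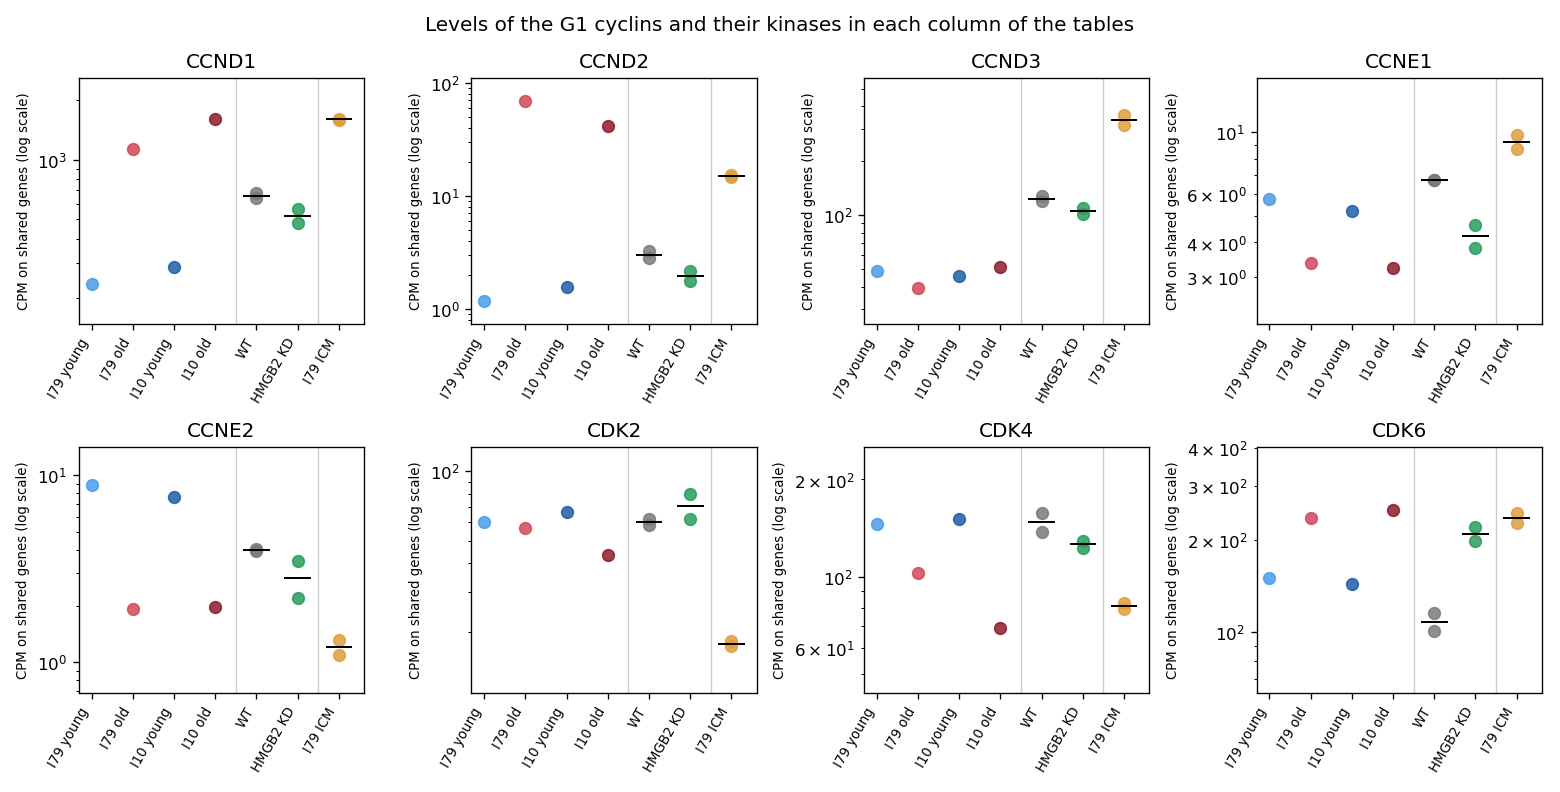
Level of each member (CPM on the shared genes, log scale) in every column, with 1 point per table or library, a bar at the mean of the groups with 2 libraries, and vertical lines between tables counted in different ways. CCND1 and CCND2 lie far higher in both old columns than in both young ones, CCNE2 lies lower, and CDK6 lies higher in HMGB2 KD than in WT.

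The knockdown libraries address what happens to these genes when HMGB2 is depleted. The passage of these cells is not given in the sources used here, and HMGB2 in WT, at 29.4 and 29.6 CPM on shared genes, lay below both old columns (38.8 and 44.5) and both young ones (139 and 163). CDK6 rose, and none of the 5 cyclins was called by edgeR or by DESeq2, with 1 at an unadjusted p under 0.05. Of the 8 members, 1 was called, where 5.20% of all genes tested were called (2.86% higher in HMGB2 KD and 2.34% lower). The ranges of the groups, each of 2 libraries, stood apart in 8 of 8 members, where they did in 53.8% of all genes. With library totals in place of TMM, called genes went from 55.0% to 44.3% higher, and no member changed sign. Nothing in the labels says that replicates came from separate cultures, so these p-values measure the spread between these libraries, which may be technical.

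The CDK6 level in TMM-scaled CPM was 92.6 and 106 for WT, and 211 and 196 for HMGB2 KD, a mean of 99.2 ± 9.44 (SD, n = 2) against 203 ± 10.9 (SD, n = 2). The 2 groups stood clear of each other. The log2 fold change was 1.03 (SE 0.13, adjusted p = 0.000301, edgeR), a 2.05-fold rise that ranked 478 of 15338. It was also called under the other scalings, without the filter, with DESeq2, with the replicate block and with a RUVs factor. It was called when each library in turn was left out, with an edgeR adjusted p of at most 0.00142, although 1 arm then holds a single library, assumed to vary like the other group. It was the 1 of 8 members called higher in both this comparison and with passage, where 0.611% of the 12775 genes tested in both were. In the RPKM of the longest transcript, CDK6 went from 10.2% and 12.98% of summed CDK4 and CDK6 in WT to 23.5% and 22.5% in HMGB2 KD.

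CDK4 stood at 145 and 127 TMM-scaled CPM in WT and 123 and 120.4 in HMGB2 KD (log2 -0.16, SE 0.13, adjusted p = 0.514, edgeR). TSPAN31 had a log2 change of 0.47 here (adjusted p = 0.0324, edgeR). CDK2 lay at 54.0 and 57.0 CPM in WT and 75.9 and 60.9 in HMGB2 KD, a log2 change of 0.30 (SE 0.14, adjusted p = 0.195, edgeR) that came more from 1 knockdown library than from the other.

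All 5 cyclins had lower values in the knockdown, and no change passed the test. CCND1 went from 587 and 627 TMM-scaled CPM in WT to 455 and 556 in HMGB2 KD (log2 -0.26, SE 0.15, adjusted p = 0.315, edgeR). CCND2 had 102 and 96 counts in WT and 76 and 69 in HMGB2 KD (log2 -0.54, SE 0.31, adjusted p = 0.325, edgeR). CCND3 was at 110.1 and 117 CPM in WT and 96.8 and 108 in HMGB2 KD (log2 -0.15, SE 0.13, adjusted p = 0.527, edgeR).

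CCNE1 came closest to the threshold among the cyclins, with 6.19 and 6.21 CPM in WT and 4.43 and 3.74 in HMGB2 KD (log2 -0.60, SE 0.22, adjusted p = 0.106, edgeR). CCNE2 lay at 3.74 and 3.62 CPM in WT and 3.31 and 2.16 in HMGB2 KD (log2 -0.43, SE 0.29, adjusted p = 0.415, edgeR). Whether the members' changes differed between the knockdown and passage was not tested, since the tables were normalized separately.

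**Figure D2:**
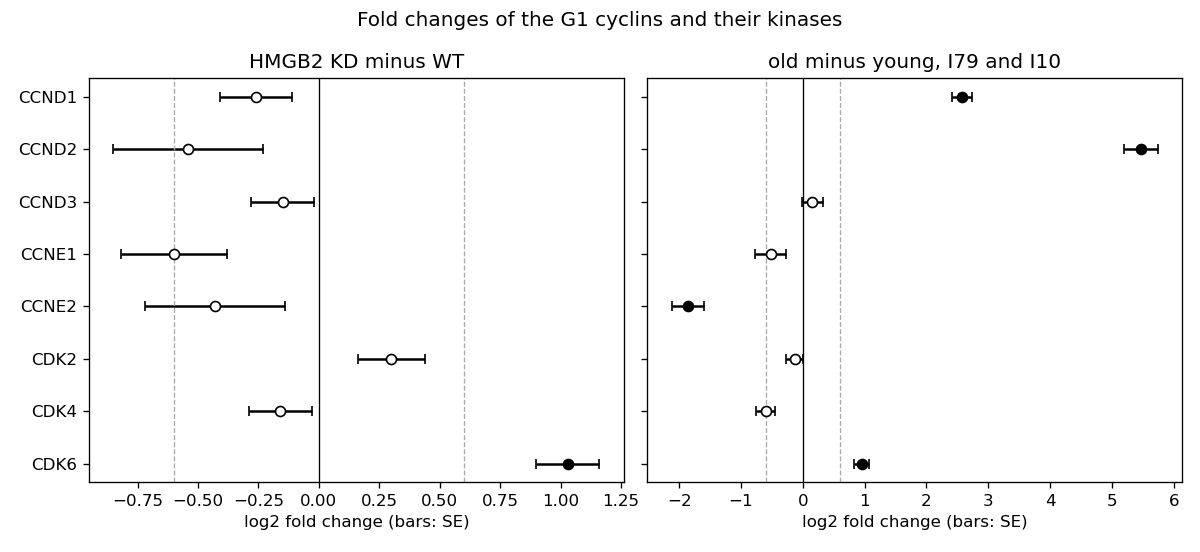
Log2 fold change of each member in HMGB2 KD against WT (left) and in old against young over both isolates (right), with bars for the standard error, dashed lines at a change of 0.6 either way, filled points for called members and different horizontal scales. CDK6 is filled in both panels, at 1.03 and 0.95.

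ICM-treated cells were compared with I79 young on the log2 CPM of the shared genes. The ICM tables were made in another way than the I79 young table, so no test was run. The same ratio is given for WT and for I10 young. WT was counted in yet another way, and its isolate and passage are not given in the sources used here. I10 young was counted like I79 young, so neither ratio measures the counting of the ICM tables. The log2 ratio passed 0.6 in 8 of 8 members, where 59.3% of all 13822 genes compared did. WT against I79 young passed it in 4 of 8 members (43.1% of all genes), and I10 young against I79 young, which were counted alike, in 0 of 8 (8.16% of all genes). Against WT the ICM libraries passed 0.6 in 7 of 8 members (57.9% of all genes), and against I79 old in 5 of 8 (59.0%). The median of all genes was -0.04 for ICM and -0.02 for WT.

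All D-type cyclins lay higher in the ICM libraries. CCND1 stood at 1609 and 1592 CPM on shared genes in ICM and at 236 in I79 young, a log2 ratio of 2.76, beside 1.48 for WT and 2.26 for I79 old. CCND2 stood at 15.1 and 14.6 CPM in ICM (195 and 155 reads) and at 1.17 in I79 young. Its ratio of 3.58 was above the 1.30 of WT and below the 5.76 of I79 old. CCND3, which did not pass the passage test, had one of the highest levels relative to I79 young in ICM, at 358 and 316 CPM against 48.7. Its log2 ratio was 2.78, beside 1.34 for WT and -0.30 for I79 old.

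The make-up of the D-type cyclins in ICM is set beside that of WT, in RPKM for both, although their tables were counted in different ways. CCND1 made up 71.1% and 73.3% of their summed RPKM, CCND3 28.4% and 26.2%, and CCND2 0.445% and 0.447%. In WT these were 74.6% and 74.6% for CCND1, 25.1% and 25.2% for CCND3, and 0.252% and 0.204% for CCND2. In HMGB2 KD, CCND1 was at 72.2% and 74.0% and CCND2 was at 0.219% and 0.153%.

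CCNE2 stood at 1.09 and 1.32 CPM in ICM on 14 reads in each library, and at 8.83 in I79 young. The log2 ratio of -2.80 compared with -1.13 for WT and -2.15 for I79 old. CCNE1 went the other way in value, at 8.70 and 9.79 CPM against 5.76 (log2 0.67). In the first library alone its ratio was 0.59, under 0.6, and the WT ratio was 0.22. CCNE2 made up 7.12% and 7.63% of the summed E-type RPKM in ICM, and 27.0% and 26.3% in WT.

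The kinases parted in ICM as well. CDK2 lay at 17.3 and 18.3 CPM against 60.1 in I79 young, a log2 ratio of -1.75, where WT gave 0.00 and I79 old -0.08. Set directly against I79 old, CDK2 had an ICM ratio of -1.67. CDK4 had a ratio of -0.84 (0.01 for WT and -0.51 for I79 old), with 79.5 and 83.1 CPM in ICM against 146. CDK6 had a ratio of 0.66 (-0.48 for WT and 0.66 for I79 old), with 246 and 227 CPM against 149.7, and the second library alone did not pass 0.6. Its share of summed CDK4 and CDK6 RPKM was 35.6% and 32.8%.

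The place of the ICM reads within each transcript differed sharply between members and bears on any ratio of coding reads alone. CDK6 had 88.4% and 86.8% of its ICM reads in the 3′ untranslated region, CCND2 80.0% in each library and CCND1 65.5% and 66.4%, where all genes together had 25.3% and 24.2%. CDK6, CCND2 and CCND1 also have the longest transcripts of the members, at 11612, 6480 and 4307 bases. The part of transcript length in the place of the reads was not tested. CDK4 and CCNE1 read mostly in the coding region, at 70.8% and 68.8% for CDK4 and 71.4% and 72.1% for CCNE1. With only the coding reads of the ICM tables kept, the CDK6 ratio turned from 0.66 to -2.15 and those of CCND2 and CCND1 dropped from 3.58 to 1.57 and from 2.76 to 1.49, while CCND3 was at 2.64. CCNE1 and CDK4 were at 0.88 and -0.68, and CCNE2 and CDK2 at -3.40 and -2.16. That alternative drops reads from the ICM side alone, since the I79 young table gives no regions. Each ratio thus moves with the coding share of the gene's ICM reads, whatever the treatment did. That share was 8.44% and 9.26% for CDK6, against 61.1% and 61.9% for all genes together. The alternative therefore cannot show whether ICM changed these genes.

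**Figure D3:**
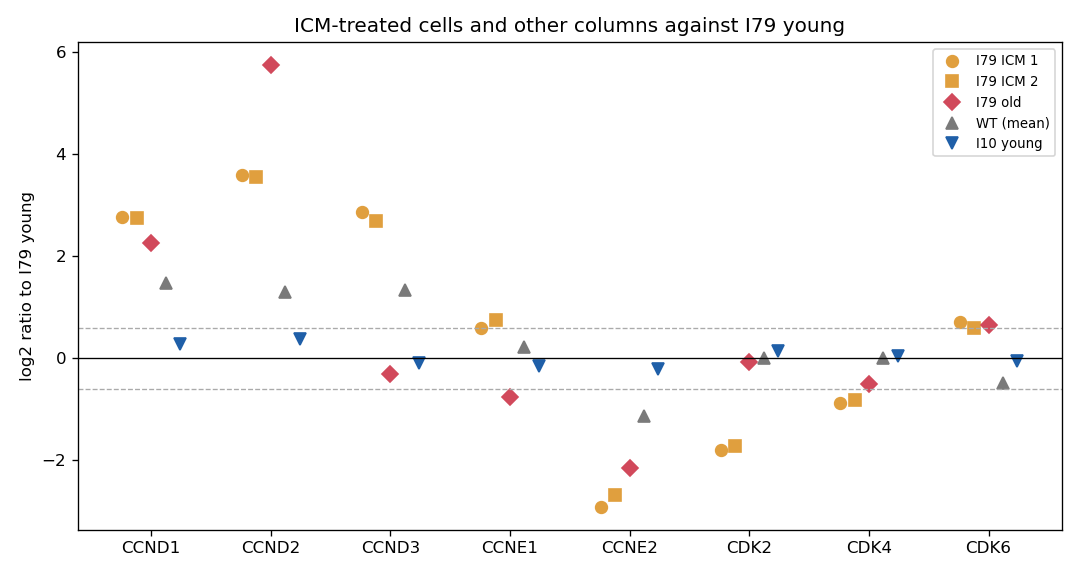
Log2 ratio of CPM on the shared genes to I79 young for each ICM library, I79 old, the mean of WT and I10 young, with dashed lines at 0.6 either way. I10 young stays within 0.6 for all 8 members, and for CCND3 and CDK2 the ICM libraries lie far from I79 old, at 2.78 against -0.30 and at -1.75 against -0.08.

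**Figure D4:**
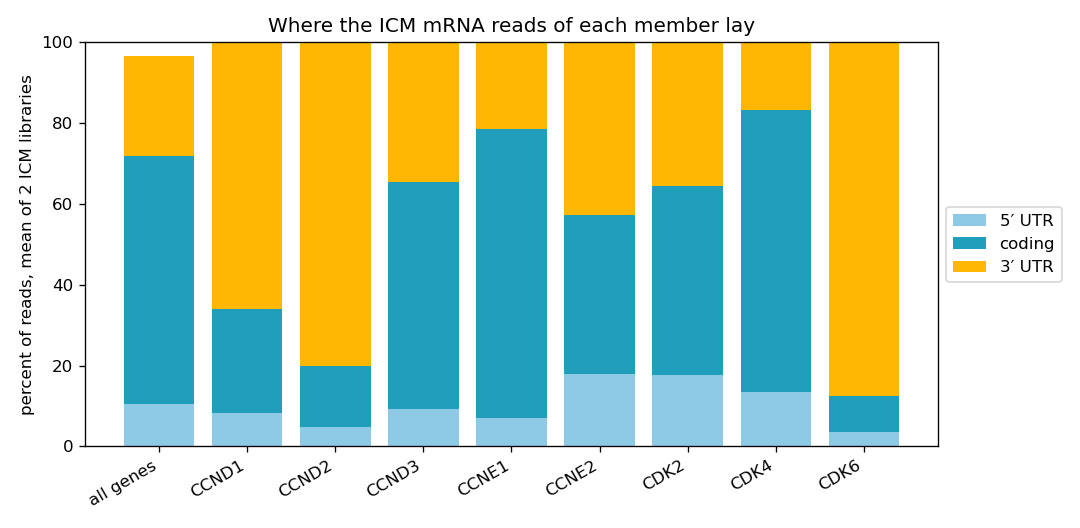
Percent of reads in the 5′ untranslated, coding and 3′ untranslated regions, as the mean of the 2 ICM libraries, for all genes together, whose other reads lie in noncoding classes, and for each member. CDK6, CCND2 and CCND1 lie mostly in the 3′ untranslated region.

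Over the 10 columns, in CPM on the shared genes, CCND2 had the widest range of the members, with its highest value 58.3 times its lowest, and CDK4 the narrowest, at 2.26 times. CDK6 was lowest in WT, with HMGB2 KD, old and ICM columns all above both young columns. Orders across the differently counted tables, here and below, also hold the counting. CCNE2 ran from the young columns through WT and HMGB2 KD to old and then ICM. The neighbouring old columns (1.93 and 1.97 CPM) and the HMGB2 KD libraries (3.46 and 2.20 CPM) cannot be placed in a firm order, since the HMGB2 KD libraries differed from each other by more than 1 of them did from the old columns. Per length, CDK4 was the most abundant member in both young columns and CCND1 in the other 8. The lowest was CCND2 in the young, WT and HMGB2 KD columns and CCNE2 in the old and ICM columns. The summed D-type level was 12.6 and 15.7 times the summed E-type level in young cells and 104 and 163 times in old cells, in TPM. In RPKM it was 44.01 and 47.2 times in WT, 46.4 and 70.4 times in HMGB2 KD and 115 and 97.2 times in ICM. Ratios in TPM and in RPKM are not on the same scale.

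**Figure D5:**
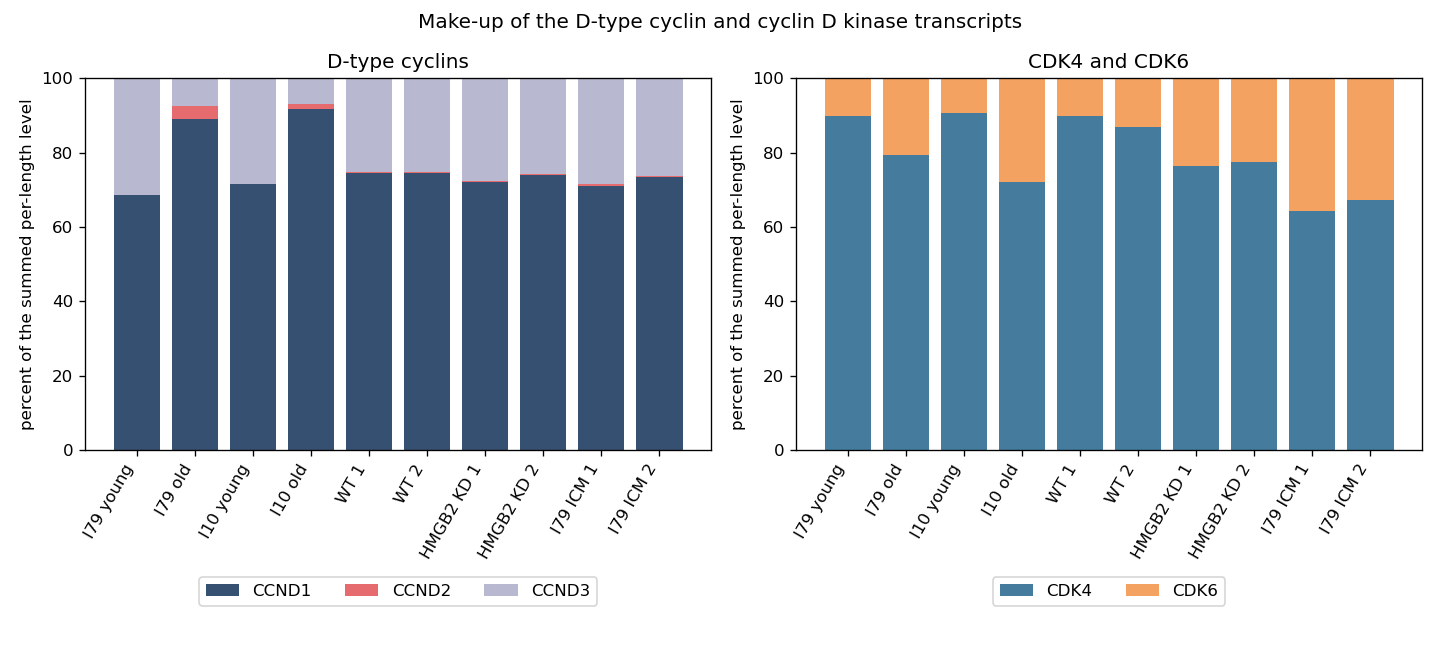
Percent of the summed per-length level (TPM for old and young, RPKM for the others) held by each D-type cyclin (left) and by CDK4 and CDK6 (right), with 1 bar per table or library. CCND1 reaches 89.2% and 91.7% in the old columns. In TPM, CDK6 is at 10.2% in I79 young and 20.7% in I79 old. In RPKM it is at 35.6% and 32.8% in ICM. Shares in TPM and in RPKM are not on the same scale.

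The genes around the members in the pathway were counted in 5 lists, with 51 of 52 genes tested in each comparison. With passage, 1 of these was called higher and 19 were called lower, where 9.57% of all genes tested were called. The median log2 change of the 51 was -0.67, beside -0.01 over all genes. Of the genes that the G1 switch turns on for S phase, 11 of 15 tested were called lower and none higher, with a median of -2.07. Among them the log2 change was -3.31 for MYBL2, a transcription factor of cycling cells, -2.70 for CDC6, which loads the replicative helicase, -2.25 for TK1, a thymidine kinase, and -2.17 for MCM3, a helicase subunit. All 4 mitotic genes fell, with log2 changes of -2.28 for CCNB2, -2.21 for CCNB1, -1.80 for CDK1 and -1.65 for CCNF. CCNB1, CCNB2 and CDK1 lost the call when isolate was left out of the model (adjusted p of at most 0.0162, edgeR).

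Of 13 pocket protein and E2F genes, 3 were called lower and none higher with passage: E2F8 (log2 -3.04), RBL1, which encodes the retinoblastoma relative p107 (log2 -1.34), and E2F1 (log2 -1.32). E2F1 was not called with DESeq2 (adjusted p = 0.0120 by that tool). Of the 7 CDK inhibitors, CDKN1A rose by 2.48 on the log2 scale and CDKN2C, which encodes the CDK4 and CDK6 inhibitor p18, fell by 1.73. None of the 12 genes for activation and turnover of these complexes was called by edgeR or by DESeq2, with 5 at an unadjusted p under 0.05. All 5 lists held 39 genes with a negative change and 12 with a positive one.

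In HMGB2 KD, 1 of the 51 genes was called higher and 1 lower, where 5.2% of all genes tested were called. The median log2 change of the 51 was -0.03, beside 0.00 over all genes. CDKN2B, which encodes p15, an inhibitor of CDK4 and CDK6, had 19.9 and 18.2 CPM in WT and 42.9 and 45.5 in HMGB2 KD (log2 1.21, SE 0.14, adjusted p = 0.000108, edgeR), so it rose in the same libraries as CDK6. CCNH, the cyclin of the CDK-activating kinase, fell by 0.73 (adjusted p = 0.00914, edgeR), and lost the call without WT replicate 1 or without HMGB2 KD replicate 2 (adjusted p of at most 0.157, edgeR). None of the 12 pocket protein and E2F genes tested, the 16 S phase genes or the 4 mitotic genes was called by edgeR or by DESeq2. At an unadjusted p under 0.05 there were 4, 2 and 0 of them.

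In ICM, 14 of 16 S phase genes lay below I79 young by more than 0.6, 2 lay above it by as much, and the median log2 ratio was -2.89. In WT 12 of 16 lay below and 2 above, with a median of -1.36. MCM4, on this list, had 1.34 TMM-scaled CPM in I79 young and 37.3 and 35.8 in WT. CCNA2, also on it, did not pass the filter on low counts in the old and young columns. Low I79 young values of this kind also enter these ratios. Over all genes, 59.3% passed 0.6 in ICM and 43.1% in WT, both directions together. The 4 mitotic genes had medians of -3.70 and -1.94. The WT libraries held less of these transcripts relative to I79 young than the ratio of the median gene, beside the cyclin D and CCNE2 values of WT given above. The part of this in the ICM and WT ratios of the members was not tested.

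The patterns most like those of the members over the 4 old and young columns and the 4 WT and HMGB2 KD libraries were found by Euclidean distance of centred log2 CPM, among 12775 genes. CDK6 was nearest to COL12A1 (distance 0.27), a fibroblast collagen gene that went up by 1.03 in the knockdown and 0.90 with passage on the log2 scale, and to HRH1, a histamine receptor gene (0.37). CCND1 was nearest to FMN2 (0.51) and NDRG1 (0.55), and CCND2 to CLEC2B (0.83) and PSG5 (1.00), at wider distances than the other members. CCNE2 was nearest to NOVA1 (0.27) and EFCAB7 (0.34), and CCNE1 to ORC4 (0.17), a subunit of the origin recognition complex, and FBXO21 (0.18). CCND3 was nearest to CCNYL1 (0.15) and FITM2 (0.16), CDK2 to ZNF34 (0.14) and APPBP2 (0.16), and CDK4 to RNF138 (0.15) and HNRNPDL (0.16). A flat pattern has many near neighbours, so a small distance says little for these last 3 members. It says little for CCNE1 either, which was called in neither comparison.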

How the data were processed

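Poly(A)+ RNA-seq of IMR90 cells was analysed from 10 columns. Raw counts per gene were deposited by the authors for the WT and knockdown libraries (between 33561766 and 41168932 a library). For old and young they deposited estimated counts and TPM per transcript (between 14991385 and 20632959), 1 table a group although 2 replicates are labelled, and the quantifier is not given in the sources used here. For ICM they deposited estimated counts per gene and transcript region (13290131 and 10971132 reads). The study's methods and the submitters' notes name STAR 2.6.0c on hg19 and featureCounts, without saying for which table. Strand use is not given in the sources used here. Summary rows (16.9% to 18.0%) were left out.

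Transcripts were summed to genes through GENCODE v44 on GRCh37 (97.7% of IDs matched) and rounded. Tests used edgeR 4.0.16 (R 4.3.3), quasi-likelihood, TMM, filterByExpr and Benjamini-Hochberg adjustment, with calls at an adjusted p under 0.01 and a log2 change over 0.6. The SE is the log2 change over the square root of F. RPKM used the longest transcript. ICM ratios used a prior count of 2 and genes with a mean of at least 10 reads. Intervals are exact Clopper-Pearson at 95%. The test scripts were tested on simulated data. Alternatives were scaling by RLE or library totals, no filter, DESeq2 1.42.0, an adjusted p of 0.05, a replicate block, 1 RUVs factor, other lengths and leaving out each library or isolate. The members, lists and tests were chosen with earlier results of these data known. Named genes were the members, 3 label checks (HMGB2, CDKN1A and LMNB1), at most 4 called genes a list and direction, and the 2 nearest patterns of each member. TSPAN31, INTS8 and PMEL were named for their exon overlap after values were seen. MCM4 and CCNA2 were named for their low old and young values, also after values were seen.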

Additional observations from a re-analysis of the deposited data

Results flagged for a closer look

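CCND3 and CDK2 had changes of opposite sign in I79 and I10 with passage. For CCND3 the log2 change was -0.13 in I79 and 0.43 in I10, a difference (I79 minus I10) of -0.56. For CDK2 it was 0.09 in I79 and -0.35 in I10, a difference of 0.44. In I79 the 95% counting intervals of the old to young ratio included 1 for both, at 0.821 to 1.02 for CCND3 and 0.970 to 1.17 for CDK2, so the I79 direction was not beyond counting error. With 1 table for each age and isolate, the difference was not tested. Over all 15116 genes, 19.1% had opposite signs in the isolates, and the median size of the difference was 0.257, so both members differed by more than the median gene.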

How the results depend on the processing

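With 11 alternatives for each of the 8 members, 88 of 88 values left the members' knockdown calls and signs as reported. With passage, CCND3 turned to -0.06 with library totals (edgeR adjusted p = 0.785) and, without isolate I10, CCND3 was at -0.13 and CDK2 at 0.09, and without I79 they were at 0.43 and -0.35. With coding reads only on the ICM side, the CDK6 ICM ratio turned to -2.15, a shift set by the small coding share of its ICM reads. The number of members called ranged from 3 to 5 with passage and was 1 throughout for the knockdown, and the number past 0.6 in ICM was 7 or 8. Genes called in the knockdown numbered 797, and 1243 with a replicate block (same-numbered libraries correlated at 0.124, and 2 pairs cannot show a pairing). Leaving out 1 library gave 312 to 999, lowest without HMGB2 KD replicate 2. With passage they numbered 1447, and 3130 with library totals, 4251 without the filter and 3860 at an adjusted p of 0.05. The cause was not tested. Counts not divided by length put the CCND2 share at 0.408%, 5.49%, 0.467%, 2.46%, 0.385%, 0.317% and 0.762% in I79 (young, then old), I10 (young, then old), WT, HMGB2 KD and ICM, and the union of exons put ICM at 0.469%. Low counts of CCND2 in young cells and of CCNE1 and CCNE2 throughout limit their precision.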
